A study of Homo sapiens with 18 samples.

Results

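The clustered protocadherins are 53 genes that lie in a row on chromosome 5 (band q31, genome build GRCh37), and they were examined here among 19794 protein-coding genes. The genes were taken by name from the annotation: 13 alpha, 16 beta, 12 gamma A and 7 gamma B genes, and the 5 C-type genes PCDHAC1, PCDHAC2, PCDHGC3, PCDHGC4 and PCDHGC5. For each gene the window reached 1 kb to either side of the 5′ end of its variable exon, the exon that is its own. The study tested 5 commercial kits that enrich methylated DNA with a methyl-CpG binding domain (MBD), each used once on DNA of 3 untreated cancer cell lines, and sequenced the captured fragments (MBD-seq). The lines were HCT15, from a colorectal carcinoma, and DU145 and PC3, both from prostate cancers. The kits were MethylMagnet, MethylCollector, MethylCollector Ultra, MethylCap and MethylMiner, which gave 15 MBD-seq libraries. Reduced representation bisulfite sequencing (RRBS), which reads single CpGs as methylated or unmethylated, was done once on each line. There was 1 DNA source per line and no untransformed tissue, so a line stands only for itself and a difference between 2 lines is a difference between 2 DNA preparations.

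Protocadherins are cell surface proteins with cadherin repeats, best known from neurons, where each cell uses its own combination of clustered isoforms as a tag by which its branches recognize one another. In the alpha and gamma clusters each variable exon has a promoter of its own and is spliced to constant exons shared by the cluster, which encode the common cytoplasmic end of the proteins, while the beta genes consist of single exons. Methylation of a variable exon's promoter is known to keep that exon unused, and the factor CTCF, which helps a distant enhancer reach a promoter, binds many of these promoters when they are unmethylated. The C-type genes are the last variable exons of the alpha and gamma clusters and are used more widely than the other isoforms.

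The stretches of 200 bases below, plus strand of GRCh37, were chosen because they hold the CpGs that separate the lines, or that do not. All 6 lie in the coding part of the variable exon, and capitals mark the CpGs with at least 10 RRBS reads in all 3 lines.
PCDHA4, chr5:140186966-140187165, plus strand: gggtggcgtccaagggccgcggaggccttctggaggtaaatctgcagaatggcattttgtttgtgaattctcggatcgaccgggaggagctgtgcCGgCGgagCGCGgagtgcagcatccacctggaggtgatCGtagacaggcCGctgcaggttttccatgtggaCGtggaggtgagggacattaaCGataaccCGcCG
PCDHA6, chr5:140207879-140208078, plus strand: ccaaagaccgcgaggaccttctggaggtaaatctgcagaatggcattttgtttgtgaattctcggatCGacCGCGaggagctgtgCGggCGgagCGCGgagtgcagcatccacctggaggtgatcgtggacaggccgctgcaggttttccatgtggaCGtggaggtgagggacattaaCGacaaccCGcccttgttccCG
PCDHAC1, chr5:140306657-140306856, plus strand: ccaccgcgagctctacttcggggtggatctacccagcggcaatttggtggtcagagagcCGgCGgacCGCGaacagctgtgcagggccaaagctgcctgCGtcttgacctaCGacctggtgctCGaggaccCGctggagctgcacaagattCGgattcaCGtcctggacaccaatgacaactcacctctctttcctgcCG
PCDHGA10, chr5:140792830-140793029, plus strand: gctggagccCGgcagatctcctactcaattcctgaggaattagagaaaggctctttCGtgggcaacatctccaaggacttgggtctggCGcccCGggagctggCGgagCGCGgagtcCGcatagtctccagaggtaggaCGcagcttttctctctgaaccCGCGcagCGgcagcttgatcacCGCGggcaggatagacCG
PCDHGA12, chr5:140810402-140810601, plus strand: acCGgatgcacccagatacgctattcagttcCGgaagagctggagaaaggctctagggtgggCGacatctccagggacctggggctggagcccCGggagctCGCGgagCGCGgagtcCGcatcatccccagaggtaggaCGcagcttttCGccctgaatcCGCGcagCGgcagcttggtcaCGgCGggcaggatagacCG
PCDHGC3, chr5:140855684-140855883, plus strand: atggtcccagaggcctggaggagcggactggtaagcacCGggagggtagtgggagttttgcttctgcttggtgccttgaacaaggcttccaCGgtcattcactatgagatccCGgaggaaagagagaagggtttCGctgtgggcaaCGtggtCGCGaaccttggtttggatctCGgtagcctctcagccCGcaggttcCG

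The 10 marked CpGs of PCDHA4 had a mean methylation level of 95% in HCT15, 11.0% in DU145 and 45.0% in PC3. The 11 marked CpGs of PCDHA6 had means of 95.9%, 43.1% and 97.2% in the same order, and the 11 of PCDHAC1 means of 91.2%, 15.1% and 13.6%. PCDHGA10 showed the opposite order, with means of 13.2% in HCT15, 72.9% in DU145 and 97.2% in PC3 over 15 CpGs. The 17 marked CpGs of PCDHGA12 were methylated in every line, with means of 96.0%, 98.9% and 98.6%. In PCDHGC3 the DU145 library alone was low, at 17.4% over 10 CpGs, beside 94.9% in HCT15 and 98.7% in PC3. Variable exons of the same family, such as PCDHGA10 and PCDHGA12, thus differed in level within a single library.

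The RRBS libraries held 2922644, 3036395 and 3074978 CpGs in the order HCT15, DU145 and PC3, at a median coverage of 18, 24 and 20 reads. The lowest coverage kept by the authors was 6 reads, and CpGs with at least 10 were used here. The MBD-seq libraries held between 10040 and 7344098 fragments, a range set largely by the kit. In 12 of the 15 libraries the fragment density was highest over CpGs that RRBS found methylated only in the line named on the label, and the 3 that did not follow this were those made with MethylMiner. Confidence intervals below cover counting error only. The Wilson intervals of RRBS count a read once for each CpG it covers, so they are too narrow.

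A feature of the RRBS libraries touches every level below. CpGs inside the sequences CCGG and TCGA, the recognition sites of the enzymes MspI and TaqI, were rarely low even where all their neighbours were. In the window of TAF7, a gene for a subunit of the general transcription factor TFIID that lies between the beta and gamma clusters, the CpGs inside CCGG had means of 51.8%, 49.6% and 49.1% in HCT15, DU145 and PC3, while the others had means of 1.17%, 0.804% and 2.35%. In the window of SLC25A2, a mitochondrial transporter gene that also lies between these clusters, both kinds were high, at 98.2%, 99.2% and 98.6% inside these sites and 97.1%, 98.7% and 97.1% outside them. Over the protocadherin windows CpGs inside the sites had means of 85.0%, 82.2% and 80.8% (193, 183 and 190 CpGs), and those outside means of 79.9%, 63.9% and 64.4% (472, 397 and 432 CpGs). Levels of windows with little methylation are therefore higher in these files than their other CpGs show. The enzyme of the libraries is not given in the sources used here, and the part of the sites in the results was not tested. Values without these CpGs, an alternative chosen after seeing the data, are given beside the main counts and beside the levels of named genes that they moved by over 1.5 times. In the stretches printed above, the marked CpGs outside the sites had means in HCT15, DU145 and PC3 of 93.8%, 1.01% and 38.9% for PCDHA4 (8 CpGs), 89.7%, 2.84% and 2.62% for PCDHAC1 (8 CpGs), 3.98%, 69.2% and 97.1% for PCDHGA10 (12 CpGs), and 94.0%, 0.898% and 98.6% for PCDHGC3 (7 CpGs).

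A level, the mean over at least 5 CpGs of the window, was obtained for 37 of the 53 genes in HCT15, 37 in DU145 and 39 in PC3, for 32 genes in all 3 lines and for 11 in none. These 11 were PCDHA3, PCDHB7 to PCDHB13, PCDHB16, PCDHGB3 and PCDHGC5, so the beta family is the least covered. The measured windows were mostly methylated. In HCT15 24 genes (64.9%) had a level of at least 80%, in DU145 18 (48.6%) and in PC3 22 (56.4%). Among all other protein-coding genes the same shares were 17.6%, 9.32% and 7.18%. A level of 20% or less was found for 0, 2 and 1 protocadherins, against 58.6%, 61.3% and 63.8% of the other genes, and the medians were 86.6%, 79.7% and 84.4%, against 16.3%, 16.3% and 15.6%. Without CpGs inside CCGG or TCGA, the protocadherins at 80% or more were 24 of 35, 14 of 27 and 18 of 32 (68.6%, 51.9% and 56.2%), against 15.7%, 6.72% and 5.40% of the other genes, and those at 20% or less were 1, 4 and 6 (2.86%, 14.8% and 18.8%), against 71.8%, 78.2% and 80.4%.

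**Figure D1:**
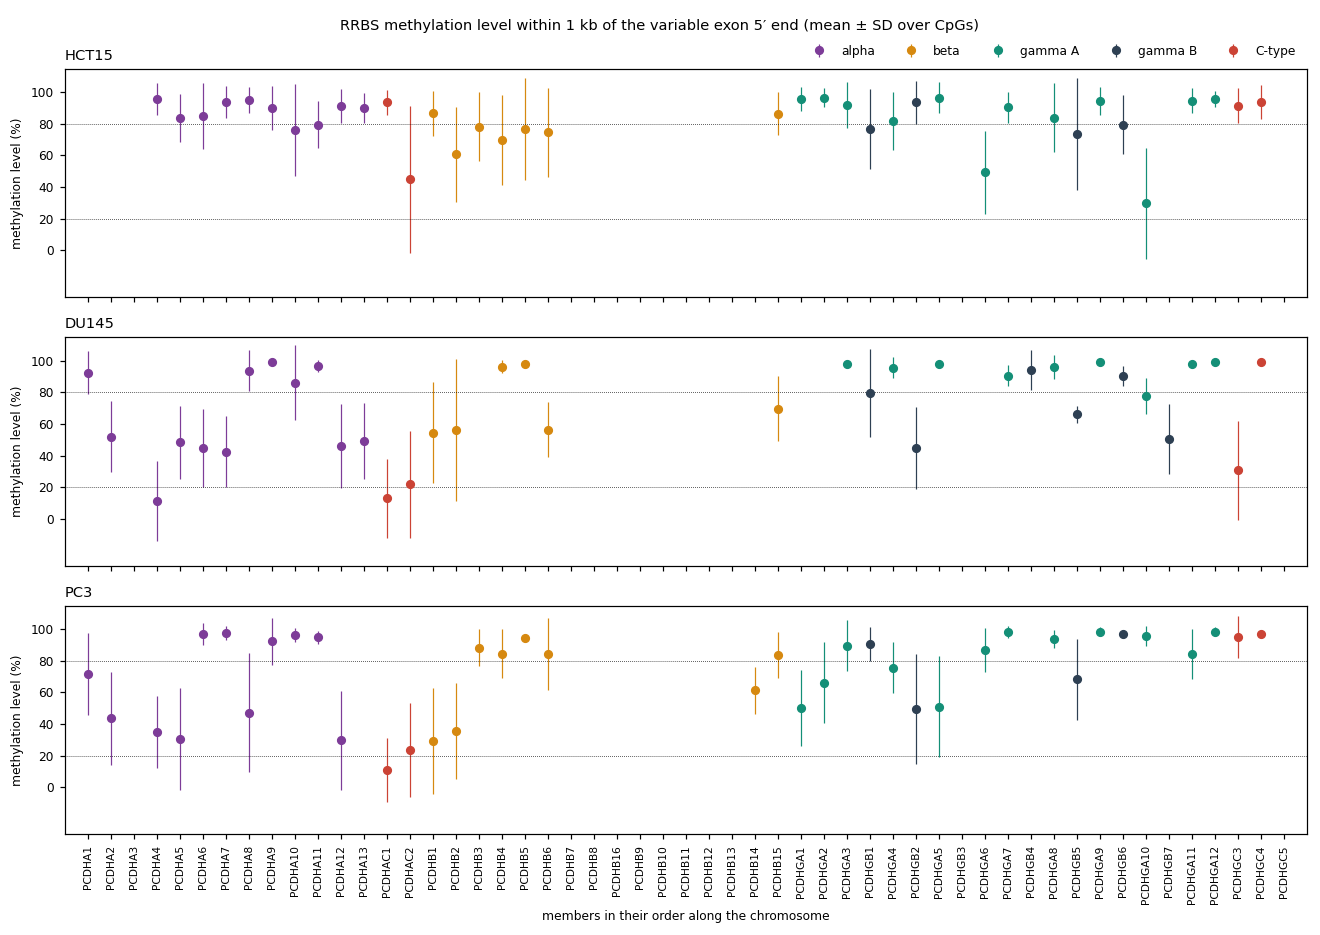
Mean RRBS methylation level (%, y axis) of each of the 53 clustered protocadherins, in chromosome order (x axis), in HCT15, DU145 and PC3 from top to bottom. Bars are the SD over the CpGs of a window (they may pass 0 or 100), colours the families, dotted lines 20% and 80%, and genes without a point had fewer than 5 CpGs; DU145 had 11 genes between 40% and 60%, HCT15 2 and PC3 5.

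Of the 32 genes with a level in every line, 8 were at 80% or more in all of them: PCDHA9, PCDHGA3, PCDHGA7, PCDHGA8, PCDHGA9, PCDHGA11, PCDHGA12 and PCDHGC4. Only PCDHAC2, PCDHB2 and PCDHGB5 were below 80% in all 3. The gap between a gene's highest and lowest line ranged from 3.15 percentage points for PCDHGA12 to 85.0 for PCDHA4, with a median of 21.9 (32 genes). The methylated state in every line was thus found for 6 gamma A genes, 1 alpha gene and 1 C-type gene, and the other 21 genes reached 80% in only 1 or 2 lines.

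The alpha genes encode the isoforms that share the alpha constant exons, and their levels were mostly high in HCT15 and divided in DU145 and PC3. In HCT15 8 of the 10 measured alpha genes had 80% or more, in DU145 5 of 12 and in PC3 5 of 11, and 6 of the 12 in DU145 lay between 40% and 60%. PCDHA4, the lowest of the family on average, had a level of 96.0% ± 10.1 (SD, 16 CpGs) in HCT15, 11.0% ± 25.3 (10 CpGs) in DU145 and 34.9% ± 22.8 (24 CpGs) in PC3. Pooled over the readings of its CpGs, its share of methylated readings was 96.3% for HCT15 (95% Wilson interval 92.9 to 98.1), 11.8% for DU145 (8.88 to 15.4) and 35.6% for PC3 (31.5 to 39.9). The intervals of the 3 libraries, which are too narrow, do not overlap. Outside CCGG and TCGA the levels of PCDHA4 were 95.3%, 1.01% and 26.4%. PCDHA9, the highest of the family, had 90% in HCT15, 99.0% in DU145 and 92.4% in PC3. PCDHA6 had 84.9% ± 21.0 (27 CpGs) and 96.9% ± 7.1 (15 CpGs) in HCT15 and PC3, and 45.0% ± 24.7 (24 CpGs) in DU145. In DU145 20 of the 24 CpGs of PCDHA6 were between 20% and 80% and its median CpG was at 38.5%, so the intermediate mean did not come from a mixture of fully methylated and unmethylated CpGs. PCDHA12 had 91.2% ± 10.8 (21 CpGs), 45.9% ± 26.6 (20 CpGs) and 29.7% ± 31.3 (19 CpGs) in HCT15, DU145 and PC3, and outside the sites it had 92.8%, 34.6% and 17.8%. PCDHA7 was at 93.9% and 97.8% in HCT15 and PC3 and at 42.3% in DU145, where only 5 CpGs were covered, and PCDHA8 was at 94.9% and 93.8% in HCT15 and DU145 and at 47.2% in PC3. The alpha exons are similar in sequence. Of the 761 CpGs measured in the 53 windows, 27 lay where every 50-base word (C read as T) had a copy elsewhere in the region, all in 7 alpha genes, 5 of them the whole value of PCDHA13 and 8 of 30 in PCDHA6. Such CpGs were 4 of 14 in PCDHA7 and 4 of 23 in PCDHA8. Levels of these 7 genes are uncertain to that extent.

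The beta genes, single-exon isoforms without shared constant exons, had a level in 7, 6 and 8 of 16 cases for HCT15, DU145 and PC3, of which 2, 2 and 5 had 80% or more. PCDHB5, the highest on average, had 76.7% in HCT15, 97.8% in DU145 and 94.6% in PC3. PCDHB2, the lowest, had 60.6%, 56.4% and 35.5%, and 55.9%, 49.1% and 17.2% outside the sites. PCDHB1, the first gene of the cluster, descended across the lines, with 86.6% ± 14.2 in HCT15, 54.3% ± 32.0 in DU145 and 29.3% ± 33.7 in PC3 over 9 CpGs each, and without CpGs inside CCGG or TCGA it had 86.5%, 44.6% and 13.2%. PCDHB4 was the beta gene whose HCT15 value was lowest against the other lines, at 70.0% ± 28.4 (18 CpGs), beside 96.2% ± 4.1 (18 CpGs) in DU145 and 84.7% ± 15.4 (15 CpGs) in PC3. Its HCT15 CpGs ran from 20.6% to 100%, with a median of 79.0%, and overlapped the range of PC3. In DU145 PCDHB6 had intermediate values at nearly every CpG, with 27 of 28 between 20% and 80% and a median of 59.6%.

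The gamma A genes, variable exons of the gamma cluster, were the most uniformly methylated family, with 10 of 12 genes at 80% or more in HCT15, 8 of 9 in DU145 and 8 of 12 in PC3. PCDHGA12, the highest, had 95.8% ± 5.2 (41 CpGs), 99.0% ± 1.7 (33 CpGs) and 98.6% ± 2.6 (33 CpGs), and every one of these CpGs was at 80% or more in each library. PCDHGA10, the lowest, had 29.7% ± 35.3 (28 CpGs) in HCT15, 77.8% ± 11.5 (22 CpGs) in DU145 and 95.8% ± 6.1 (28 CpGs) in PC3. In HCT15 16 of its 28 CpGs were at 20% or less, while none was in DU145 or PC3, and outside the sites its levels were 18.7%, 73.5% and 95.9%. PCDHGA5 was methylated in HCT15 (96.7% ± 9.9) and DU145 (97.9% ± 2.6) and intermediate in PC3 (51.0% ± 31.9, 17 CpGs in each line). Its PC3 CpGs were spread from 6.45% to 100%. PCDHGA6 had 49.4% ± 26.2 (9 CpGs) in HCT15 and 86.9% ± 13.9 (6 CpGs) in PC3, and too few CpGs in DU145. PCDHGA3 stayed close to full methylation, with 91.9% ± 14.8, 97.7% ± 2.2 and 89.7% ± 16.3 (18 CpGs each). Among the gamma B genes, the other large set of gamma variable exons, 1 of 4, 2 of 6 and 2 of 4 had 80% or more. PCDHGB6, their highest, had 79.5%, 90.6% and 97.2%, and PCDHGB2, their lowest, 93.6% ± 13.5 (16 CpGs), 44.9% ± 26.0 (7 CpGs) and 49.6% ± 35.0 (10 CpGs).

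Among the C-type genes PCDHAC2 had the lowest mean over the 3 lines of the 32 genes with a level in each, 30.1%, and PCDHAC1 the next. PCDHAC1 was methylated in HCT15, at 93.7% ± 7.8 (38 CpGs), and low in DU145 and PC3, at 12.8% ± 25.2 (38 CpGs) and 10.8% ± 20.2 (39 CpGs). Its pooled share was 93.0% of 1221 single-CpG readings for HCT15 (Wilson interval 91.5 to 94.3), 9.58% of 4572 for DU145 (8.76 to 10.5) and 10.3% of 1907 for PC3 (8.99 to 11.7), so that the last 2 overlapped. Outside CCGG and TCGA its levels were 93.3%, 1.02% and 1.45% (29, 29 and 31 CpGs), and inside them 94.9%, 50.6% and 47.2%. PCDHAC2 was below 50% in all lines, with 44.8% ± 46.5 (38 CpGs), 21.9% ± 33.9 (27 CpGs) and 23.5% ± 30.0 (45 CpGs), and without the sites 34.7%, 7.35% and 11.9%. In HCT15 its level changed along the exon, from 16.1% over the first 300 bases (13 CpGs) to 75.1% over the rest of the window downstream (19 CpGs). In PC3 the same stretches had 14.9% (17 CpGs) and 31.7% (22 CpGs), and in DU145 18.5% (5 CpGs) and 22.7% (22 CpGs). Split at 500 bases instead, the level of PCDHAC2 rose in every line. It went from 42.7% to 96.8% in HCT15, from 10.0% to 74.1% in DU145 and from 17.1% to 73.9% in PC3. The part beyond 500 bases held 5 CpGs in each line. PCDHGC3 was methylated in HCT15 and PC3, at 91.5% ± 11.2 (24 CpGs) and 95.1% ± 13.3 (33 CpGs), and at 30.6% ± 31.5 (29 CpGs) in DU145, where 14 of its 29 CpGs were at 20% or less. Outside the sites its levels were 92.4%, 18.5% and 94.3% in the order HCT15, DU145 and PC3. PCDHGC4 was methylated throughout, with 94.0% ± 10.6 (14 CpGs), 99.1% ± 1.9 (24 CpGs) and 97.2% ± 2.8 (13 CpGs). PCDHGC5 had only 3 covered CpGs in each line and no value. The genes between the clusters had levels of 11.5%, 10.8% and 12.1% for TAF7 and 97.5%, 98.9% and 97.5% for SLC25A2.

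**Figure D2:**
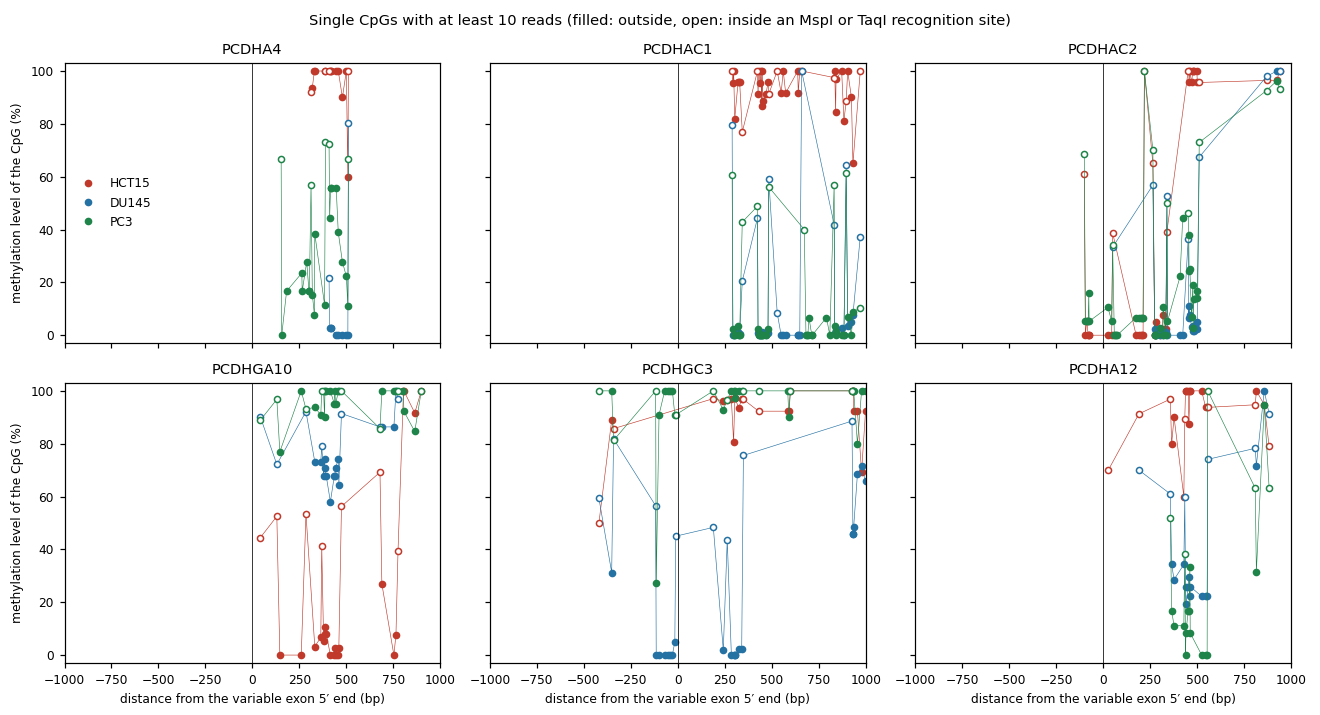
Methylation level (%, y axis) of each CpG with at least 10 reads against its distance from the 5′ end of the variable exon (bp, x axis) for 6 genes, coloured by cell line. Filled points lie outside and open points inside the sites CCGG and TCGA; in PCDHAC1 the filled DU145 points do not pass 7.69% and the filled PC3 points 8.82%, while the open ones reach 100% and 61.5%.

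The lines were compared over CpGs read at least 10 times in both, and a gene was called different when the mean over at least 5 shared CpGs differed by 25 percentage points or more. With 1 library per line this is a rule of size and not a test. Of the 39 genes that could be compared in at least 1 pair, 21 were called in at least 1, 9 of them in 1 pair, 10 in 2 and 2 (PCDHA4 and PCDHB1) in all 3.

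Between HCT15 and DU145, 12 of 33 protocadherins were higher in HCT15 and 2 lower, against 12.6% and 1.47% of the 14155 genes with a value. The median difference was 1.06 points for the protocadherins and -0.14 for all genes. The largest differences were 84.0 ± 26.0 points (SD over 10 CpGs) for PCDHA4, 80.9 ± 25.5 (38 CpGs) for PCDHAC1 and 51.9 ± 36.4 (20 CpGs) for PCDHGC3. On the other side PCDHGA10 was lower in HCT15 by 57.8 points (difference -57.8 ± 18.9, 22 CpGs), PCDHB4 had -26.2 ± 27.1 (18 CpGs), just past the threshold, and PCDHA10 had -22.7, just short of it. The alpha and C-type genes held most of the calls, with 6 of 10 and 3 of 4 higher in HCT15, while 0 of 9 gamma A genes were higher and 1 was lower. Without CpGs inside CCGG or TCGA 10 of 26 were higher and 3 lower, against 13.9% and 1.46% of all genes, and the differences were 92.7 points for PCDHA4, 92.3 for PCDHAC1 and 65.0 for PCDHGC3. Without CpGs in repeated 50-base words, another alternative chosen after seeing the data, 10 of 31 protocadherins were higher in HCT15 and 2 lower.

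Between HCT15 and PC3, 11 of 36 were higher in HCT15 and 2 lower, against 13.0% and 1.49% of 13522 genes. The median differences were -2.35 points for the protocadherins and 0.04 for all genes. PCDHAC1 again differed most, by 80.6 ± 23.5 points (30 CpGs), before PCDHA12 with 62.6 ± 33.1 (19 CpGs) and PCDHB1 with 57.4 ± 31.4 (9 CpGs). The genes called lower in HCT15 were PCDHGA10, at -66.2 ± 36.8 (28 CpGs), and PCDHGA6, at -31.9 ± 17.6 (6 CpGs). PCDHB4, at -18.5, came next without reaching the threshold. Here 4 of 9 alpha genes were higher in HCT15, and so were 3 of 12 gamma A genes and 1 of 4 C-type genes. Without the sites 11 of 32 were higher and 2 lower, against 14.4% and 1.58% of all genes. The 2 lower genes were then PCDHGA10, at -77.2, and PCDHB4, at -27.7. PCDHGA6 was left with 4 shared CpGs and had no value. Without CpGs in repeated words the counts stayed at 11 and 2 of 36.

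The prostate lines differed from each other as well. Between DU145 and PC3, 3 of 33 protocadherins were higher in DU145 and 5 lower, against 4.56% and 3.09% of 13427 genes. PCDHGA5 was higher in DU145 by 46.9 ± 32.1 points (17 CpGs), PCDHA8 by 43.6 ± 36.3 (14 CpGs) and PCDHB1 by 25.04 ± 19.6 (9 CpGs), the last at the threshold. Lower in DU145 were PCDHGC3, at -64.2 ± 33.3 (29 CpGs), PCDHA7, at -53.1 ± 20.7 (5 CpGs), and PCDHA6, at -50.2 ± 18.1 (15 CpGs), with PCDHA4 and PCDHB6 further down. The 3 pairs share libraries, so their values are not independent of one another. Without the sites 5 of 25 were higher and 4 lower, against 5.24% and 3.56% of all genes. PCDHA7 was then left with 3 shared CpGs and had no value. Without CpGs in repeated words 3 of 32 protocadherins were higher in DU145 and 4 lower.

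**Figure D3:**
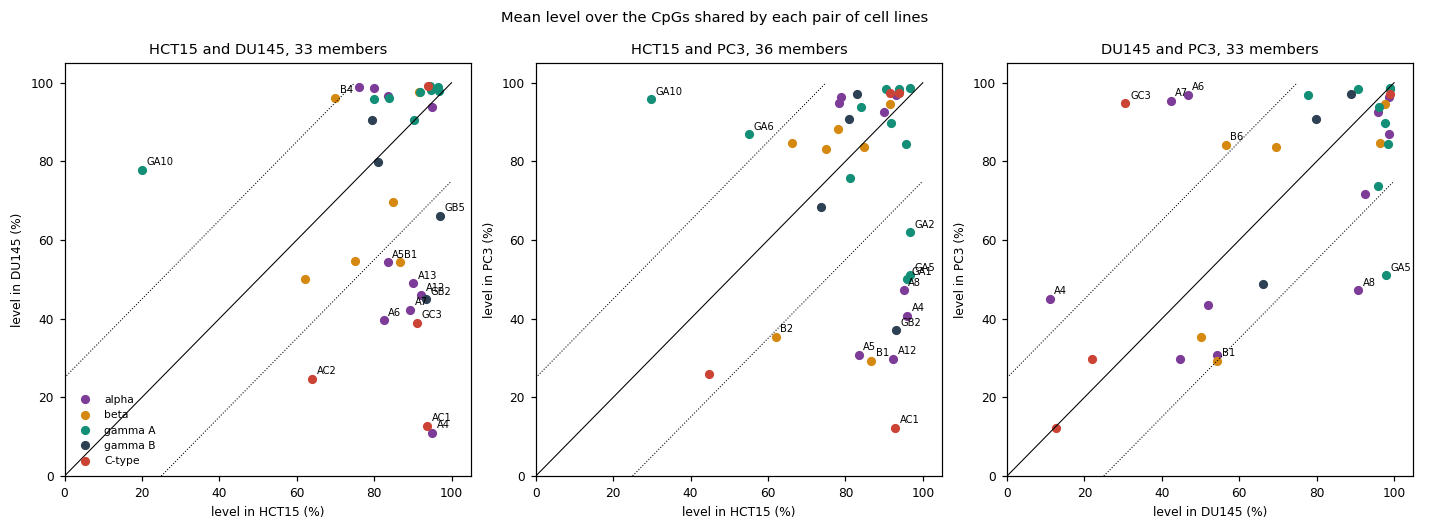
Mean level (%) of each protocadherin over the CpGs shared by 2 lines, the first line on the x axis and the second on the y axis, for the 33, 36 and 33 genes with at least 5 such CpGs. Colours are families, dotted lines mark a difference of 25 points and named points lie past it; PCDHAC1 and PCDHA4 sit at the lower right beside HCT15, and PCDHGA10 lies far above the diagonal in both HCT15 panels.

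The reads of single CpGs allow a test of the libraries, though not of the lines. With Fisher's exact test (two-sided, Benjamini-Hochberg adjustment over all CpGs of the genome, adjusted p under 0.05 and at least 25 points), 134 of 525 CpGs in the protocadherin windows were higher in HCT15 than in DU145 and 56 lower, against 7.18% and 6.95% of all CpGs tested. Against PC3, 123 of 555 were higher in HCT15 and 44 lower, with 11.3% and 3.8% over the genome. Between DU145 and PC3, 53 of 490 were higher and 66 lower, with 12.1% and 3.38%. In PCDHAC1 35 of 38 CpGs were called higher in HCT15 than in DU145 and 29 of 30 higher than in PC3, and 0 of 30 differed between DU145 and PC3. In PCDHGA10 20 of 22 were lower in HCT15 than in DU145 and 23 of 28 lower than in PC3. PCDHGC3 had 13 of 20 higher in HCT15 than in DU145 and 21 of 29 lower in DU145 than in PC3, with 1 of 24 lower in HCT15 than in PC3. Without CpGs inside CCGG or TCGA the counts were 111 higher and 40 lower of 358, 101 and 33 of 384, and 39 and 56 of 330.

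RRBS saw the start of the variable exons and hardly the sequence before it: 94.0%, 92.8% and 92.0% of the measured CpGs in HCT15, DU145 and PC3 lay downstream of the 5′ end. Levels within the windows were lower and more spread out than those deeper in the exons. CpGs of the windows had means of 81.4% ± 27.3 (665 CpGs), 69.7% ± 35.8 (580) and 69.4% ± 35.9 (622), whereas CpGs of the same variable exons more than 1 kb from the 5′ end had 89.9% ± 16.5 (873), 96.6% ± 10.0 (858) and 93.9% ± 12.6 (818). The inner parts of the exons were therefore methylated in all lines, DU145 and PC3 included. CpG density peaked in 2 places, at 6.05 CpGs per 100 bp 250 to 499 bases downstream and at 9.47 per 100 bp 1750 to 1999 bases downstream. In the first of these bins the mean level was 84.6% for HCT15, 63.4% for DU145 and 65.7% for PC3, and in the second 94.2%, 97.6% and 94.8%.

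**Figure D4:**
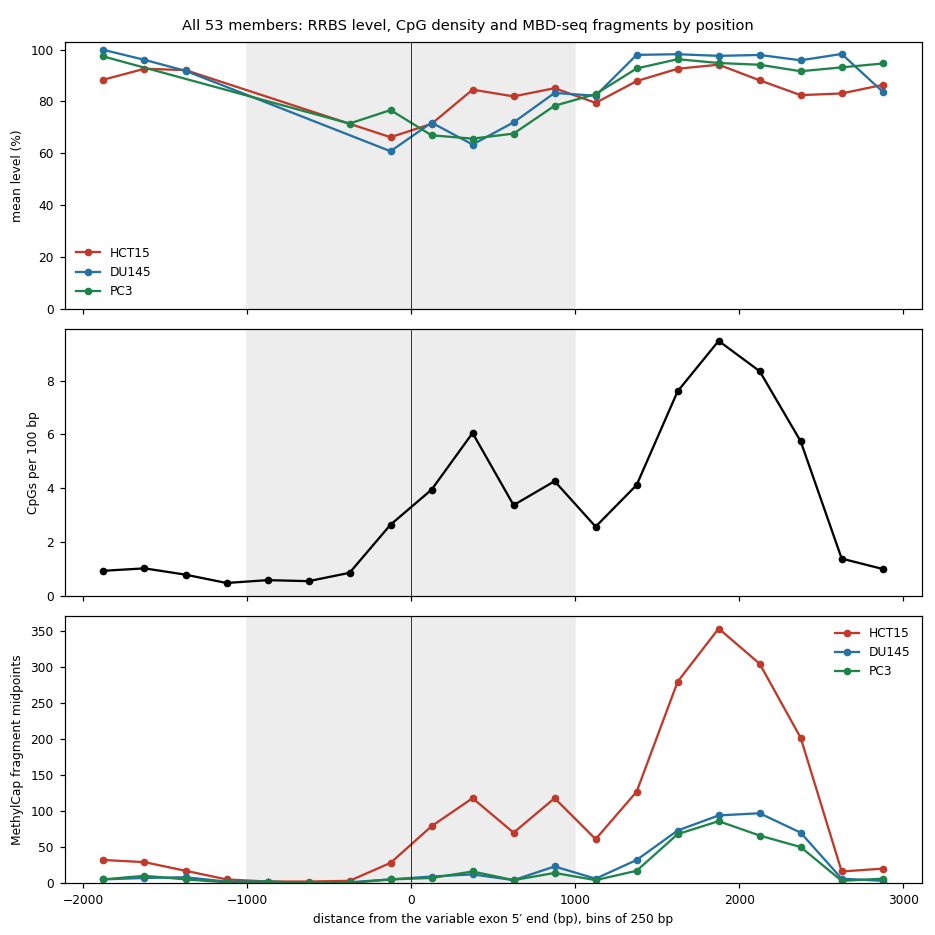
RRBS mean level (%, top, bins with at least 5 CpGs), CpGs per 100 bp (middle) and MethylCap fragment midpoints (bottom) in bins of 250 bp around the 5′ ends of all 53 variable exons, x axis in bp, the window shaded. The level dips near the 5′ end. At 250 to 499 bp HCT15 stands above the other lines (84.6% against 63.4% in DU145 and 65.7% in PC3). The gamma A exons differ, with 81.5% in HCT15, 93.4% in DU145 and 86.4% in PC3 in that bin. Fragments are most frequent between 1500 and 2500 bp, in HCT15 with 354 midpoints at 1750 to 1999 bp against 118 at 250 to 499 bp.

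In the 250 bases upstream of the 5′ end, read on both strands, the letters CGCT, the core of a sequence element known from many protocadherin promoters, occurred in 50 of 53 genes (94.3%) and in 77.1% of all protein-coding genes. A match describes the sequence only.

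The kits recovered few fragments from the windows. In HCT15 16, 70, 170, 439 and 337 fragments overlapped the 53 windows in the libraries of MethylMagnet, MethylCollector, MethylCollector Ultra, MethylCap and MethylMiner. In DU145 the numbers were 3, 3, 6, 57 and 102, and in PC3 31, 19, 78, 49 and 71. Relative to an even spread over the genome the density was 4.70 ± 2.58 in HCT15 (SD, 5 kits), 3.50 ± 2.69 in DU145 and 2.83 ± 1.88 in PC3. Relative to the windows of all protein-coding genes it was 0.994 ± 0.329, 0.882 ± 0.406 and 0.836 ± 0.354, and 6 of the 15 libraries had a higher density over the protocadherin windows than over those of all genes, among them those of MethylCollector Ultra and MethylCap in HCT15. The density was not adjusted for CpG number. The 53 windows held fewer CpGs per window, 2954 in sum against 1909158 for the 19741 other genes. MethylMiner lay lowest in each line, at 1.13, 0.858 and 0.834 of an even spread. Most of the fragments along the variable exons came from the second, inner peak of CpG density, as the MethylCap midpoints show.

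Genes with a higher RRBS level carried more fragments in the 4 kits other than MethylMiner. In HCT15 these kits together gave 18.2 fragments per gene over the 24 genes at 80% or more and 12.2 over the 13 below, in DU145 1.67 over 18 and 1.00 over 19, and in PC3 5.27 over 22 and 2.12 over 17. With MethylMiner the values were 6.58 and 7.62 in HCT15, 2.17 and 1.63 in DU145, and 1.14 and 1.65 in PC3. These are descriptions over genes that share a library and differ in CpG number.

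For a test across lines, fragments were counted over the windows of all genes in the 12 libraries of the 4 kits and fitted with edgeR's quasi-likelihood test with the kit as a block. Since each kit met each DNA once, the p-values measure the spread between captures of the same DNA. Of the 53 protocadherins 26 had at least 15 fragments and were tested, among 5959 windows. Of these, 13 reached 15 fragments in HCT15 alone and 2 did so without HCT15, and 72.6% of their fragments were from HCT15, so the filter favours windows with fragments in that line.

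Between HCT15 and PC3, 4 of the 26 were called higher in HCT15 at an adjusted p (Benjamini-Hochberg, all windows) under 0.05 and 0 lower, against 24.3% and 3.17% of all windows, so the share was below the background. Over the 4 kits the called genes PCDHAC1, PCDHGA5, PCDHAC2 and PCDHGA3 had 51, 35, 37 and 14 fragments in HCT15. They had 1 each in DU145 and 2, 2, 6 and 1 in PC3. None of them would have passed the filter without HCT15, so the direction of these calls is tied to the filter. The median log2 fold change over all windows was 0.63. PCDHAC1 had 5, 14, 13, 19 and 6 fragments in HCT15 in the order of kits above, 1, 0, 1, 0 and 5 in PC3, and 0, 0, 0, 1 and 3 in DU145. In each of the 4 fitted kits its HCT15 count per 1000000 fragments was above those of DU145 and PC3. With MethylMiner it was lowest in HCT15, from 6 fragments of 7344098 against 3 of 2955893 in DU145 and 5 of 2092970 in PC3. The log2 fold change of PCDHAC1 was 4.10 (edgeR adjusted p = 2.47e-06), and the pooled ratio per fragment over the 4 kits was 9.73 (exact 95% interval 2.56 to 82.5). Pooled ratios ignore the pairing by kit, so the mix of kits in each line enters them and their intervals. MethylCap gave 3886402 of the 4864802 pooled fragments in HCT15, 823586 of 893575 in DU145 and 950278 of 1856088 in PC3. PCDHGA5 had 0, 7, 8, 20 and 10 fragments in HCT15 and 0, 0, 0, 2 and 1 in PC3, with a log2 fold change of 2.57 (edgeR adjusted p = 0.00491) and a pooled ratio of 6.68 (1.71 to 57.3). Its RRBS level was also lower in PC3. PCDHAC2 had 2, 3, 13, 19 and 6 fragments in HCT15 and 0, 2, 4, 0 and 4 in PC3, with a log2 fold change of 1.84 (edgeR adjusted p = 0.0138), and its pooled ratio of 2.35 (0.984 to 6.82) did not exclude equality. PCDHGA3, whose RRBS levels in HCT15 and PC3 were 91.9% and 89.7%, had 0, 2, 4, 8 and 4 fragments in HCT15 and 1, 0, 0, 0 and 0 in PC3, with a log2 fold change of 2.73 (edgeR adjusted p = 0.0326) and a pooled ratio of 5.34 (0.813 to 225.9). The calls of PCDHGA5, PCDHAC2 and PCDHGA3 were lost with TMM factors for library size, which left 1 of the 4 called, and without the PC3 library of MethylCollector Ultra, which left PCDHAC1 and added PCDHB1. PCDHGA5 was also lost without the HCT15 library of MethylCollector Ultra, and PCDHAC2 without either MethylCap library of HCT15 or PC3. Per library fragment, PCDHAC2 was higher in PC3 than in HCT15 with MethylCollector and PCDHGA3 with MethylMagnet. PCDHGA3 was lost as well without the PC3 library of MethylCollector or MethylCap, or the DU145 library of MethylCollector Ultra or MethylCap.

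Between HCT15 and DU145, 0 of 26 protocadherins passed, with 5 at an unadjusted p under 0.05, against 1.81% of all windows higher and 0.587% lower, and DESeq2, which gave an adjusted p for 6 of them, called 0. On simulated counts changed 4-fold in HCT15, the edgeR test called 2 of 153 changed windows for this pair. For HCT15 against PC3 it called 29 of 153. Each simulated window had the same rate in every kit and the spread was fixed, so these shares are not the recovery of the real test. The lack of calls does not show equal capture. PCDHAC1 had a log2 fold change of 2.64 (edgeR adjusted p = 0.123) and a pooled ratio of 9.37 (1.61 to 377.2), from 51 fragments against 1. PCDHGC3, low by RRBS in DU145, had 0, 1, 15, 23 and 11 fragments in HCT15, 0, 0, 0, 1 and 0 in DU145 and 3, 1, 3, 6 and 3 in PC3, with a log2 fold change of 2.48 (edgeR adjusted p = 0.160) and a pooled ratio of 7.16 (1.21 to 290.1) between HCT15 and DU145. PCDHA4 had 0, 5, 5, 5 and 7 fragments in HCT15, 0, 0, 0, 0 and 3 in DU145 and 0, 0, 0, 1 and 2 in PC3. PCDHGA10, the gene that RRBS found low in HCT15, had 0, 1, 2, 6 and 8 in HCT15, 0, 0, 0, 1 and 1 in DU145 and 0, 2, 1, 2 and 0 in PC3, with a pooled ratio of 1.65 (0.229 to 72.5) between HCT15 and DU145 and of 0.687 (0.207 to 2.61) between HCT15 and PC3. Both intervals hold equality, and the first ratio lay on the other side of 1 from the RRBS difference. Between DU145 and PC3, 0 of 26 passed by edgeR and 0 had an unadjusted edgeR p under 0.05, against 2.53% of windows higher and 0.587% lower. DESeq2 gave an adjusted p for 4 of them and called 0.

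**Figure D5:**
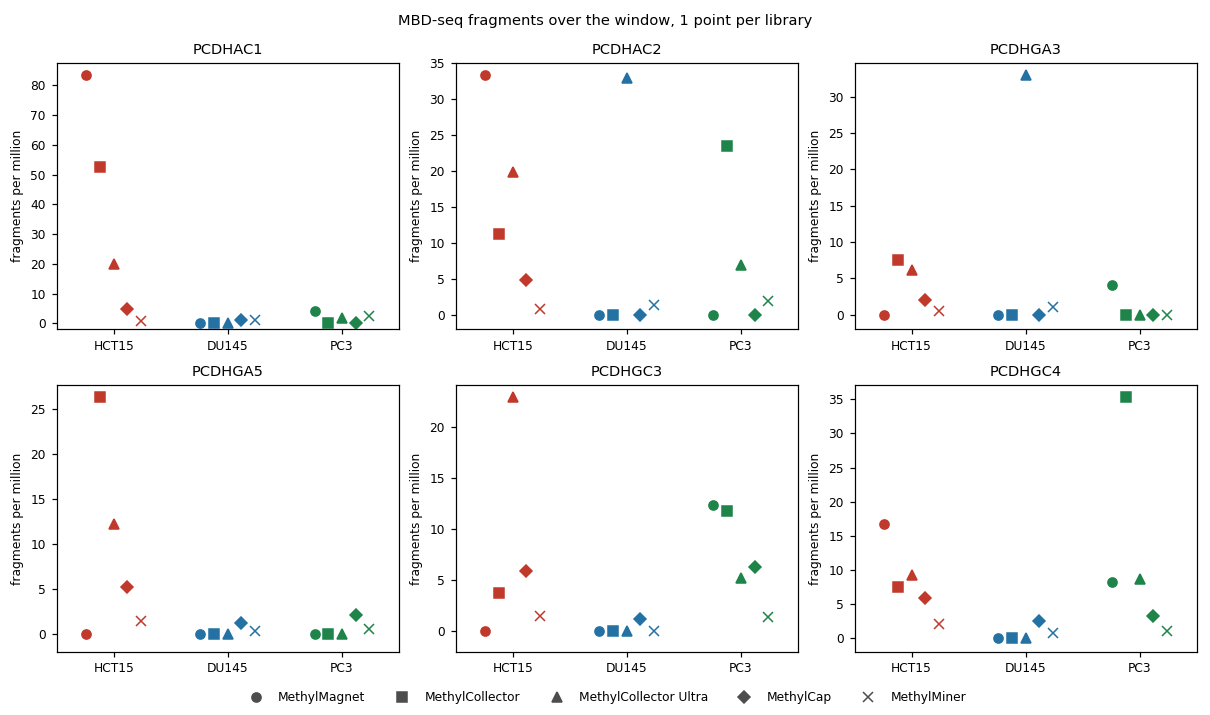
Fragments per 1000000 library fragments (y axis) over the window of 6 protocadherins in the 15 MBD-seq libraries, by cell line (x axis), 1 marker shape per kit. The 4 fitted kits place PCDHAC1 higher in HCT15 than in DU145 and PC3, a spread that MethylMiner does not show, and single points above 30 in DU145 stand for 1 fragment in a library of 30336.

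Among the non-clustered protocadherins, related adhesion genes outside the clusters, 6 of 9 measured genes were at 80% or more in HCT15, 3 of 9 in DU145 and 2 of 8 in PC3. PCDH8 was methylated in every line (95.8%, 97.0% and 89.4%), whereas PCDH17 had 99.6%, 82.7% and 23.0%, PCDH10 89.7%, 69.2% and 18.5%, and PCDH9 92.9%, 45.4% and 11.3%. Of the 10 genes beside and between the clusters 9 had a level, and 8 of these were at 20% or less in each line, SLC25A2 being the exception. HARS1 and HARS2 share a window, as do HDAC3 and RELL2. PCDH1, on chromosome 5, was counted both here and among the non-clustered protocadherins. Among 15 genes for factors that act on the clusters, such as CTCF, cohesin subunits and DNA methyltransferases, 10 of 15, 12 of 15 and 11 of 12 were at 20% or less and none was at 80% or more. Only ZNF274, a zinc finger repressor, was called between lines, at 51.8% in HCT15 against 11.6% in DU145 and 13.6% in PC3.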

How the data were processed

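DNA methylation was measured in the cell lines HCT15, DU145 and PC3 by MBD-seq with 5 kits (15 libraries) and by RRBS (3 libraries). Bowtie, run by the authors against build 37 (hg19), placed the read pairs; they kept pairs mapping uniquely within 400 bp and collapsed duplicates; the deposited MBD-seq files give the resulting fragment coverage as a signal along the genome, unscaled. The deposited RRBS files list, for each CpG, methylated and total read counts over both strands, from a coverage of 6 upwards. From these, CpGs with at least 10 reads were averaged within 1000 bp of the 5′ end of the first exon of each gene (GRCh37 annotation). Fragments were rebuilt from the starts and ends of coverage runs and counted per window. Groups were the cell lines as labelled. No library has a repeat of the same kit and line.

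Levels are means ± SD over CpGs; differences between lines were called from 25 percentage points over at least 5 shared CpGs, and per CpG with Fisher's exact test. Fragments were tested with edgeR 4.0.16 in R 4.3.3 (glmQLFTest, total fragments as library size, kit as block since each kit was applied to every line, at least 15 fragments); DESeq2 1.42.0 was an alternative. MethylMiner was left out of the main fit because its earlier results lay close to the RRBS background. Scripts were tested on simulated data and used scipy 1.17.1 and pandas 2.3.3 under Python 3.11.15, with numpy 2.4.6.

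The genes and lists were chosen with earlier results of these data known. Genes named with values were the highest and lowest of each family, the C-type genes, the 3 largest differences in each direction per pair, the called genes with the smallest p per MBD-seq contrast, TAF7 and SLC25A2; others named were chosen after their values were seen. Alternatives changed the coverage minimum, window, averaging, thresholds, library scaling, kits and libraries. The array data of the study were not analysed here.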

Additional observations from a re-analysis of the deposited data

Results flagged for a closer look

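Of 24 sets of 5 kit libraries of a line, 3 held a library whose gap to the others was large for its set by Dixon's 95% critical value. That value is made for repeats, while these were different kits of unlike depth. The share expected by chance is therefore not known here. PCDHGB2 in HCT15 had 4.60 fragments per 1000000 with MethylCollector Ultra, a value from 3 fragments, with 0 to 1.29 in the other kits. PCDHGC3 in HCT15 had 22.98 with the same kit, with 0 to 5.92 in the others. PCDHGC4 in PC3 had 35.3 with MethylCollector, a value from 3 fragments, with 0.956 to 8.64 in the others. The cause was not tested.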

How the results depend on the processing

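The numbers of genes at 80% or more stayed within 1.5 times of the main count under each alternative. The genes called between HCT15 and DU145 (14) became 8 with at least 10 shared CpGs, 23 at 10 points and 9 at 40 points. Those between HCT15 and PC3 (13) became 5 at a coverage of at least 20, 7 with at least 10 shared CpGs and 20 at 10 points. Those between DU145 and PC3 (8) became 5 at a coverage of at least 20, 20 at 10 points and 5 at 40 points. At a coverage of at least 20 the CpG calls fell from 167 to 92 between HCT15 and PC3 and from 119 to 68 between DU145 and PC3, with 276 and 304 CpGs left to test in place of 555 and 490. Among the genes named by the rule above, the only ones checked for this, no called difference changed its direction. The difference of PCDHAC2 between HCT15 and DU145 was 39.4 points and 20.6 without the CpGs of highest coverage, and that of PCDHB2 between HCT15 and PC3 was 26.6 points and 4.42 with every CpG in the files; the cause was not tested.

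Of the MBD-seq calls between HCT15 and PC3 (4 genes), 1 was left with TMM factors, 1 with DESeq2, which gave adjusted p-values for 7 of the genes, and 2 with all 5 kits. Without the replicate block, the kit as a pairing of the lines, 2 were called. Leaving out 1 library gave 2 to 5 calls, the lowest without the PC3 library of MethylCollector Ultra or the HCT15 library of MethylCap. PCDHAC1 passed in each of these settings. The other contrasts gave 0 calls in each setting. The density relative to all gene windows was 0.994 in HCT15 and 0.836 in PC3, and leaving out 1 kit gave 4.22 to 5.60 in HCT15, 2.51 to 4.16 in DU145 and 2.16 to 3.33 in PC3 relative to an even spread. Depth is a limit of the capture data: in DU145 3 of the 4 fitted kits had 3 to 6 fragments over all 53 windows.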

Other observations

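The constant exons of the gamma cluster (3 exons, chr5:140874374-140892542), which every gamma transcript shares, had 6 covered CpGs in each line. Their mean was 50.3% in HCT15, where 3 of the 6 were at 20% or less, 99.8% in DU145 and 98.3% in PC3. The 3 covered CpGs of the alpha constant exons (chr5:140358534-140391932) had means of 92.7%, 98.1% and 98.3%. CpGs of the clusters outside windows and exons had means of 74.4% ± 31.9 (486 CpGs) in HCT15, 84.6% ± 28.9 (548) in DU145 and 78.9% ± 31.7 (430) in PC3, an order that is not that of the windows, where HCT15 was highest. These values rest on single libraries.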
